A study of Canis lupus familiaris with 4 samples.

Results

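The regions described here are 1475 sites of MDCKII chromatin that were counted as already accessible in a mature epithelial monolayer. Their mean signal was at least 2-fold higher 2 h after reseeding. MDCKII is an epithelial line derived from canine kidney that grows into a polarised sheet. The assay was ATAC-seq. Its enzyme, the transposase Tn5, inserts sequencing tags preferentially where DNA is exposed, so the count in a region follows how open that region is. A total of 2 libraries (A and B) were made from fully mature cells after 7 d of growth. Another 2 (A and B) were made from cells that had also grown for 7 d but were then detached and reseeded for 2 h. All 4 libraries carry the wild-type label in their sample names, and the study is about how nuclear folding relates to chromatin. A leading code in the sample names (133 for mature, 193 for reseeded) differs between the groups, so an effect of that code and an effect of reseeding cannot be told apart. No label states whether A and B were separate cultures, and every p-value here rests on the differences among these libraries alone, which can be technical.

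The members were chosen from the measured values. Each count was divided by its library's total over all peaks and multiplied by 1000000 (CPM), and the 2 libraries of a group were averaged. A peak was a member if it lay on a numbered chromosome, had a mature mean of at least 8 CPM, a reseeded mean of at least 30 CPM and a ratio of reseeded to mature mean of at least 2. Of 59081 peaks, 57672 lay on numbered chromosomes and 1475 of these (2.56%) met the rule. The difference between the groups is therefore what chose these peaks and is described without a test. Position, spacing, neighbouring peaks and agreement between libraries A and B were not thresholds of the rule, but peaks are not replicates of a condition, so shares of peaks carry only a counting interval (exact Clopper-Pearson, 95%).

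Open chromatin marks promoters, enhancers and other elements where regulatory proteins displace nucleosomes. An element can differ between cell states by opening from closed chromatin. It can also differ by a change in the accessibility of a site that is already open. The peaks described here were counted as the second kind only because their mature mean reached 8 CPM. That bound lies under the median mature mean of all peaks, 12.3 CPM, and no level of closed chromatin was measured. Detaching an epithelial sheet takes away contacts between neighbouring cells and with the substrate, and reseeded cells must attach and spread again. A bulk count cannot tell a larger fraction of cells with an open site from a more open site in each cell. Peaks are named by chromosome, start and end in the dog build CanFam3.1, counted from 1, and were not placed on genes.

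Every member was counted well above the floor. The mature libraries held 8759513 (A) and 6253706 (B) counts in all, and the reseeded ones 16906566 (A) and 24015663 (B). The lowest count of any member was 50 in mature A and 42 in mature B, and 482 and 675 in the reseeded libraries. A count of 3, taken as the floor, equals 0.480 CPM in the shallowest library, far under the 8 CPM bound. Counting intervals cover counting error only, as the labels name no molecular identifiers and copies made by PCR may be included.

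Members started from an ordinary mature level and ended among the strong peaks. In mature A their CPM ran from 5.71 through a median of 13.8 to 76.1, and in mature B from 6.72 through 14.4 to 67.8. After reseeding they ran from 28.5 through 40.3 to 147.0 in library A and from 28.1 through 40.4 to 155.1 in library B. The median over all peaks of the numbered chromosomes was 12.1 and 12.5 CPM in the mature and 13.01 and 12.99 CPM in the reseeded libraries. In the mature state 942 members (63.9%) lay at or above the median mean CPM of all peaks, and 533 lay under it. The rule asked for at least 8 CPM in that state, so nothing is read from this share. Together the members held 2.203% and 2.285% of the counts of the mature libraries and 6.49% and 6.53% of those of the reseeded libraries.

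**Figure D1:**
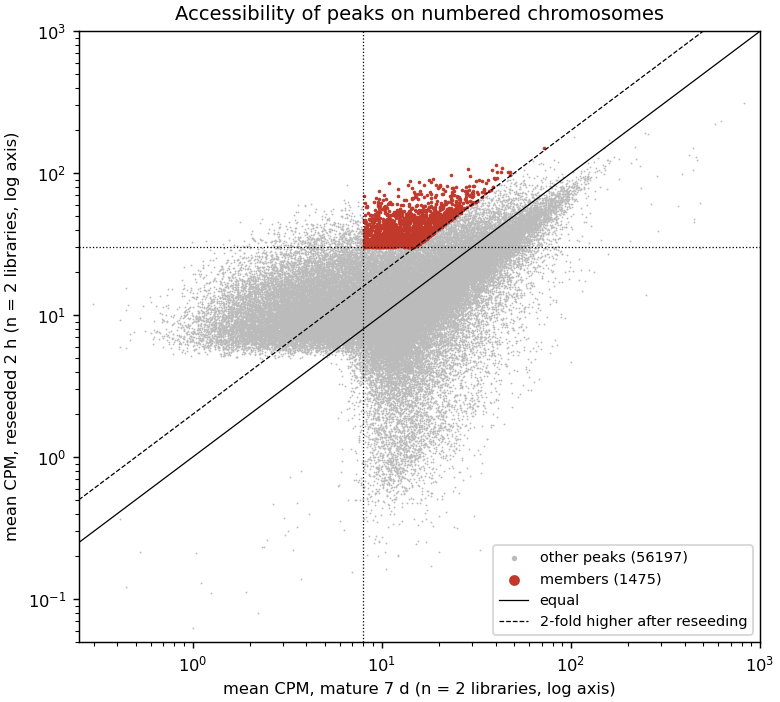
Mean CPM in reseeded libraries against mean CPM in mature libraries for each peak on a numbered chromosome, both on log axes, with members in red, the bounds of 8 and 30 CPM dotted, and lines at equality and at 2-fold. Members fill the wedge above all 3 bounds, and most lie close to the bound of 30 CPM, with a median reseeded mean of 40.2 CPM.

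Peaks that began at 8 CPM or more were 16.8% of all gains of at least 2-fold. On numbered chromosomes 15931 peaks had a ratio of at least 2, of which 2677 had a mature mean of at least 8 CPM and 2077 a reseeded mean of at least 30 CPM. The 1475 members are thus 9.26% of all peaks at least 2-fold higher and 71.0% of those that also ended at 30 CPM or more. The other 602 of that last group started under 8 CPM, with a median of 5.28 CPM and a median ratio of 7.24. Among all 7673 peaks that reached 30 CPM after reseeding, 19.2% were members.

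The gain of members was moderate for most and large for a few. Their median ratio was 2.83, with quartiles of 2.34 and 3.63. A ratio under 2.5 was found at 510 members (34.6%), at least 3 at 654 (44.3%), at least 4 at 242 (16.4%) and at least 6 at 23 (1.56%). In edgeR's fit over all peaks, scaled by trimmed-mean factors (TMM), the members' median log2 fold was 1.46 with a median SE of 0.10, against a median of -0.01 over all tested peaks. That fit called 1475 of 1475 members higher at a Benjamini-Hochberg adjusted p under 0.05, where 42.3% of the 59076 tested peaks were called higher and 84.1% were called in either direction. The rule chose on the same contrast, so nothing is read from that count. A fitted fold of at least 2 with a call was reached by 1410 members, against 26.9% of all tested peaks. The other 65 had a ratio of mean CPM of at least 2 and a fitted fold just under 2. Scaled by library size alone, the fit still left 14 members under 2.

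The share of peaks that gained at least 2-fold was lower at each higher mature level. The mature mean is also the denominator of the ratio, and how peaks entered the table is not stated. The part of either in these shares was not tested. Of 4718 peaks with a mature mean from 8 to 10 CPM, 20.03% had a ratio of at least 2, whereas the share was 9.78% of 11293 peaks from 10 to 15 CPM and 5.44% of 7155 from 15 to 20 CPM. From 20 to 30 CPM it was 2.62% of 7621 peaks, from 30 to 40 CPM 0.786% of 3818, and at 40 CPM or more 0.175% of 4567. The bound of 30 CPM cuts the lower bands, so the share that were members was nearly flat up to 20 CPM, at 5.24%, 5.32% and 5.44% in the same 3 bands. Members that began at 8 to 10 CPM, where reaching 30 CPM takes a ratio of at least 3, had a median ratio of 4.08, and the 8 that began at 40 CPM or more had one of 2.25.

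The largest ratio was at chromosome 9 from 33251567 to 33252067. There the CPM was 7.42 (A) and 8.63 (B) before and 62.7 (A) and 74.7 (B) after reseeding, and later pairs of values follow this order. The ratio was 8.56 (95% counting interval of the pooled counts 7.32 to 10.7). The reseeded libraries differed more here than at most members, yet both stood far above both mature libraries. A second peak on the same chromosome, from 33031077 to 33031577, had 10.0 and 11.7 CPM in the mature and 84.8 and 85.6 CPM in the reseeded libraries, a ratio of 7.84 (log2 fold 2.95, SE 0.10). On chromosome 17 from 15185149 to 15185649 the mature libraries had 9.70 and 9.75 CPM and the reseeded 77.1 and 73.5 CPM, a ratio of 7.74. These 3 sites had between 9 and 22 other peaks within 50 kb, of which 1 to 7 were at least 2-fold higher.

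The other 5 of the 8 highest ratios lay between 6.96 and 7.55. On chromosome 5 from 65030155 to 65030655 the CPM went from 7.88 and 8.47 in mature to 61.3 and 62.0 in reseeded libraries. On chromosome 14 from 24006954 to 24007454 it went from 8.79 and 9.75 to 67.0 and 66.3. The peak on chromosome 25 from 754020 to 754520 had 6.62 CPM in mature A and 9.91 CPM in mature B against 59.2 and 57.3 CPM after reseeding, so its ratio of 7.04 rests on mature libraries that were 1.5-fold apart. On chromosome 29 from 13150535 to 13151035 the values were 7.99 and 8.79 against 58.97 and 58.59 CPM, with no other peak within 50 kb and the nearest 82.3 kb away. On chromosome 15 from 14224068 to 14224568 they were 8.33 and 9.75 against 62.0 and 63.8 CPM, and 0 of the 8 peaks within 50 kb were at least 2-fold higher. In each of these 8 peaks the lowest reseeded library was above the highest mature one, as the rule all but requires.

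**Figure D2:**
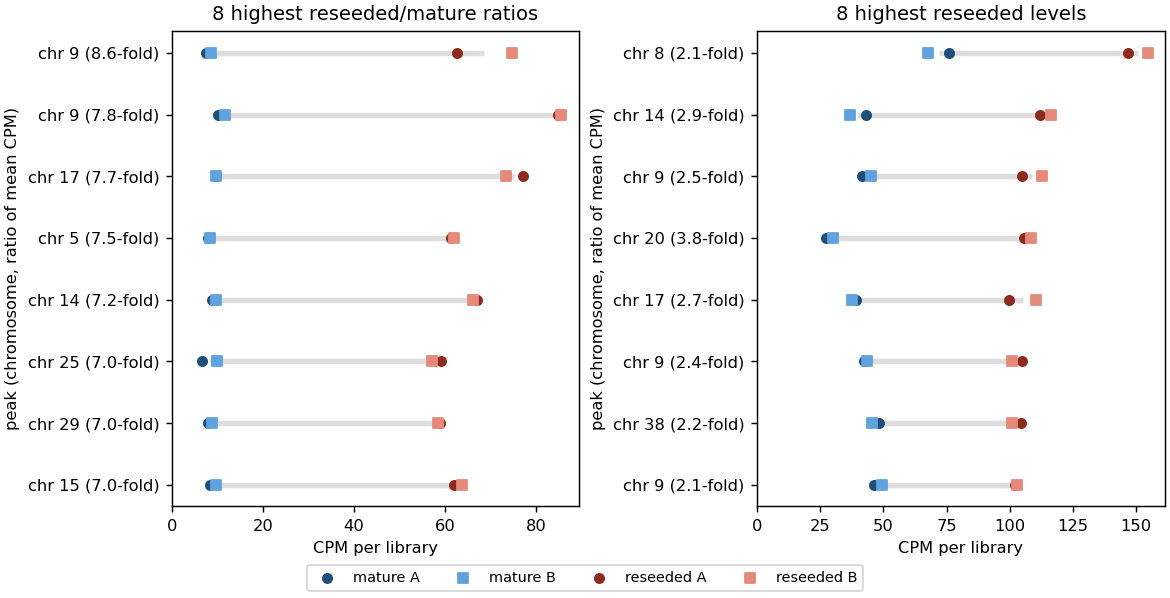
CPM in each library (circles for A, squares for B, blue for mature and red for reseeded) at the 8 members with the highest ratio and the 8 with the highest reseeded level, with a grey bar joining the group means. Members with high ratios start near 8 to 11 CPM, while 7 of the 8 strongest start between 38 and 72 CPM.

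The 8 members with the highest reseeded means began at 28.5 to 72.0 CPM and had ratios of 2.10 to 3.75. The highest reseeded mean, 151.1 CPM, was on chromosome 8 from 13417910 to 13418410, with 76.1 and 67.8 CPM in the mature and 147.0 and 155.1 CPM in the reseeded libraries. Its ratio of 2.10 (log2 fold 1.02, SE 0.07) was the lowest of the 8 highest reseeded means. Second came chromosome 14 from 8090513 to 8091013, with 43.2 and 36.8 CPM against 112.2 and 116.3 CPM, a ratio of 2.86. Chromosome 20 from 40495611 to 40496111 stood out in this group by its gain, from 27.2 and 29.9 CPM to 105.8 and 108.5 CPM, a ratio of 3.75. None of its 12 neighbours within 50 kb was at least 2-fold higher. The peak on chromosome 9 from 19888840 to 19889340 went from 41.4 and 45.2 to 105.0 and 112.8 CPM and had 4 other members within 50 kb.

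The remaining 4 of the 8 highest reseeded means had ratios of 2.14 to 2.74. They were on chromosome 17 (57378069 to 57378569), chromosome 9 (34611690 to 34612190, and 55793656 to 55794156) and chromosome 38 (342112 to 342612). The 6 highest mature means include the peaks of chromosomes 8 and 38 and the 3 of chromosome 9 just given. The other, on chromosome 1 from 93889620 to 93890120, went from 47.9 and 47.0 CPM to 94.2 and 100.2 CPM, a ratio of 2.05. In all, 38 members began at 30 CPM or more.

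Peaks at the edges of the rule were alike on both sides of it. Just inside the bound on the ratio was chromosome 17 from 53129000 to 53129500, with 19.3 and 14.1 CPM against 33.6 and 33.1 CPM, a ratio of 2.00. Chromosomes 29 (21930708 to 21931208) and 17 (39620696 to 39621196) also had ratios of 2.00. Just outside it were chromosomes 33 (29176226 to 29176726), 37 (10296888 to 10297388) and 1 (114714487 to 114714987), with ratios of 1.998, 1.997 and 1.996. The bound on the mature mean parted chromosomes 6 (from 54683972 to 54684472) and 28 (from 8994711 to 8995211), at 8.02 CPM each, from chromosomes 7 (from 79476581 to 79477081) and 17 (from 19547827 to 19548327), at 7.99 CPM each. At the bound on the reseeded mean, chromosome 17 from 24934992 to 24935492 and chromosome 32 from 33662967 to 33663467 had 30.01 CPM and were members, and chromosome 1 from 40743667 to 40744167 and chromosome 9 from 6906495 to 6906995, at 29.98 and 29.99 CPM, were not. With the other bounds met, 236 members had a ratio from 2 to 2.2 and 264 peaks had one from 1.8 to 2. The counting interval of the pooled ratio included 2 at 305 members (20.7%). Near the other bounds, 115 members had a mature mean from 8 to 9 CPM and 162 a reseeded mean from 30 to 32 CPM, so membership is also uncertain for some of these.

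The rule averaged libraries A and B, so agreement between them was looked at by choosing peaks on 1 letter and reading the other. Applying the bounds to the A libraries alone picked 1422 peaks with a median ratio of 2.84 in A, and in the B libraries, which had no part in that choice, the median ratio was 2.72, with 89.1% of the peaks at a ratio of at least 2. Picked by B alone, 1530 peaks had a median ratio of 2.84 in B and 2.98 in A, with 90.8% at a ratio of at least 2 in A. The lowest ratio in the letter not used for choosing was 1.39 and 1.42. By the group means, 15931 of all 57672 peaks on numbered chromosomes had a ratio of at least 2. All 4 libraries share the peak set, and A and B of a group share its leading code and may not be separate cultures. This is therefore not an independent experiment and shows only how alike the libraries were. For the members themselves, chosen on all 4 values, the lowest reseeded library was above the highest mature library at 1475 of 1475, as it was at 47.1% of all peaks on numbered chromosomes, and nothing is read from that count. The gap was at least 2-fold at 1289 members (87.4%) and smallest at 1.69-fold. The rule used the same 4 values and that share was not counted over all peaks, so nothing is read from it either. All 3 bounds were met by 1297 members (87.9%, interval 86.2 to 89.6) in the A libraries, by 1358 (92.1%, interval 90.6 to 93.4) in the B libraries and by 1185 (80.3%) in both, shares that the choice on the A and B means made high.

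The mature pair differed more than the reseeded pair, at a lower depth. The median count of a member was 121 and 90 in the mature and 682 and 970 in the reseeded libraries, and the part of counting error in the difference was not tested. Mature libraries were over 1.5-fold apart at 33 members (2.24%) and reseeded libraries at 0 of 1475, where the largest difference was 1.27-fold. The median absolute log2 ratio of B to A was 0.15 in the mature and 0.05 in the reseeded pair. Mature B exceeded mature A at 61.5% of members and at 54.8% of all peaks. The share was 53.3% of members with a ratio under 2.5, 62.1% from 2.5 to 3, 67.7% from 3 to 4, 65.3% from 4 to 6, and 87.0% (20 of 23) at 6 or more. The median log2 ratio of mature B to A was 0.02, 0.05, 0.09, 0.12 and 0.16 in these 5 classes. Over all peaks it was 0.03 and in the set opened from under 8 CPM 0.24. In the mirror and equal strong sets defined below, at 30 CPM or more in mature cells, it was -0.06 and -0.08. The classes also differed in mature level, with a median mean of 17.4 CPM in the lowest and 9.53 CPM in the highest. The part of mature level in the difference between mature A and B, and of that difference in the members' ratios, was not tested. Left out in turn, mature A gave the members a median log2 fold of 1.43 and mature B one of 1.49.

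Most members had no other member close by. How often any peak had a member within 10 kb was not counted, so closeness beyond their frequency cannot be judged. In all, 142 members (9.63%, interval 8.17 to 11.2) had another member within 10 kb between midpoints. They formed 68 pairs and 2 groups of 3, and the other 1333 members had none. Of the 72 steps between consecutive members of a group, 9 were up to 1 kb, 32 from 1 to 5 kb and 31 over 5 kb. Peaks of the mirror set, which were at least 30 CPM in mature cells, at least 8 CPM after reseeding and at least 2-fold lower, had another peak of their set within 10 kb at 22.6% of 1135. In 2086 strong peaks with about equal levels (at least 30 CPM in both states, neither more than 25% above the other) that share was 10.7%, and in the 602 peaks opened from under 8 CPM 3.65%. The sets differ in size, and a larger set has more chances of a near neighbour.

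The 3 groups with the most members or the highest summed level show different local patterns. On chromosome 15, adjoining members from 1639507 to 1640007, 1642422 to 1642922 and 1643447 to 1643947 had ratios of 2.204, 2.91 and 2.09, with no other peak between them, while 6 of the 17 peaks within 50 kb of each were at least 2-fold lower. The middle one went from 19.9 and 21.4 CPM to 59.9 and 60.4 CPM. On chromosome 5 the members from 36449677 to 36450177, 36453513 to 36454013 and 36462962 to 36463462 had ratios of 2.78, 2.71 and 3.92, and none of the 10 peaks around each was at least 2-fold lower. A weaker peak between them, from 36450376 to 36450876, went from 2.05 and 2.72 to 12.8 and 11.9 CPM, and another, from 36458545 to 36459045, had 4.11 and 3.04 against 6.86 and 7.12 CPM and turned to a log2 fold of -0.55 under loess offsets. On chromosome 17 the members from 57374353 to 57374853 (40.4 and 40.9 to 98.4 and 106.6 CPM) and from 57378069 to 57378569 (39.3 and 37.6 to 99.9 and 110.4 CPM) flanked a peak from 57377108 to 57377608 with a ratio of only 1.35. That peak had 19.7 CPM in reseeded A and 27.4 CPM in reseeded B, and edgeR's adjusted p for it went from 0.0027 to 0.39 without reseeded B.

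Neighbours of members also tended to be higher after reseeding, but far from uniformly. The nearest peak that was not a member was at least 2-fold higher for 36.6% of members (interval 34.1 to 39.1) and at least 2-fold lower for 10.3%, with a median log2 ratio of 0.45. For all peaks of the numbered chromosomes these figures were 25.99%, 14.5% and -0.01. There the nearest peak of any kind was taken, so members and all peaks were not measured quite alike. Up to 1 kb away, 38.1% of 252 such neighbours of members were at least 2-fold higher, against 13.97% of 12140 over all peaks and 7.47% and 4.19% in the equal and mirror sets. Between 1 and 5 kb the share was 32.02% for members and 24.8% for all peaks, from 5 to 20 kb 39.7% and 31.4%, and from 20 to 100 kb 40.6% and 35.4%. The intervals cover counting only and take peaks as independent, so whether they overlap is not read as a test. Peaks opened from under 8 CPM had the highest share up to 1 kb, 65.8% of 73. These neighbours were measured in the contrast that chose the members, and no test of the differences was made. The neighbours of members were also weaker in mature cells, with a median of 9.90 CPM against 12.8 CPM for those of all peaks, and only 204 peaks of the numbered chromosomes were both under 8 CPM in mature and under 5 CPM in reseeded cells. The part of that in the shares was not tested.

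**Figure D3:**
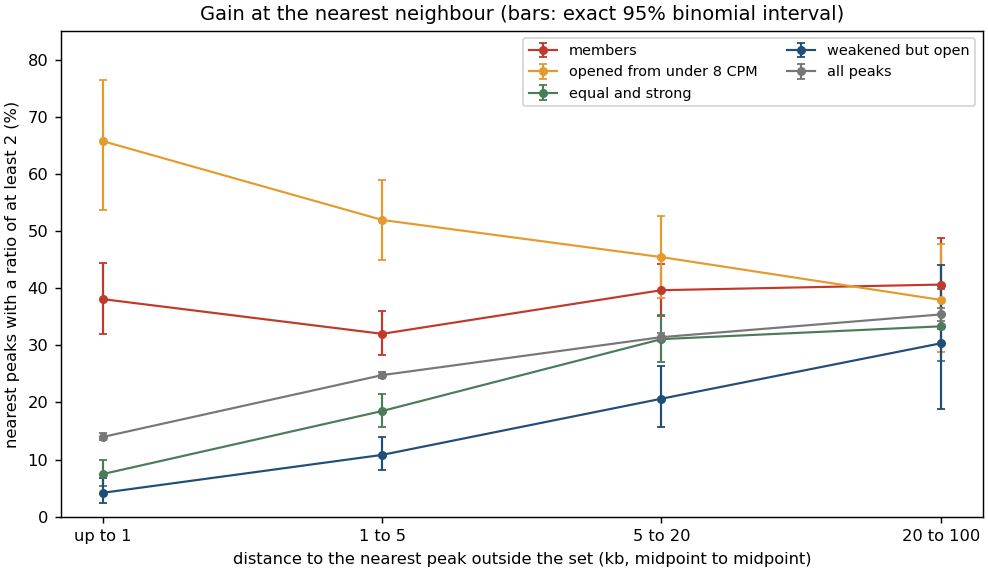
Share of nearest neighbours with a ratio of at least 2, by distance (points, with exact 95% binomial intervals as bars). Neighbours were taken outside the set for members, peaks opened from under 8 CPM, the equal strong set and the mirror set (weakened but open). For all peaks the nearest peak of any kind was taken. Members lie at 32.02% to 40.6% in the 4 bins, while all peaks climb from 13.97% to 35.4% with distance.

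Within 50 kb, the surroundings of members ranged from stretches that mostly gained to stretches that mostly lost. Of 1261 members with at least 3 other peaks within 50 kb, 314 (24.9%) had a ratio of at least 2 at 50% or more of those peaks, and 178 (14.1%) at none. In 43 (3.41%), 50% or more of the surrounding peaks were at least 2-fold lower. For all peaks these shares were 17.9%, 23.0% and 5.62%. Among members with at least 5 such neighbours, 8 of 8 were at least 2-fold higher around chromosome 2 from 8564385 to 8564885, a member that went from 15.5 and 14.1 CPM to 49.3 and 51.7 CPM. The opposite case was chromosome 12 from 19759697 to 19760197, where 5 of 6 neighbours were at least 2-fold lower while the member went from 9.13 and 10.9 CPM to 30.1 and 30.3 CPM. Around chromosome 9 from 37425698 to 37426198, 16 of 21 neighbours were at least 2-fold lower and 0 higher. These 3 sites were chosen after their values were seen.

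Members often became the strongest peak of their surroundings. Of 1442 members with another peak within 50 kb, 272 (18.9%) had the highest mean CPM of that stretch in mature cells and 940 (65.2%) after reseeding. At 682 (47.3%) the member led after reseeding and another peak led before. In the equal strong set the leading share was 58.3% in mature and 61.6% in reseeded cells, and 11.6% led only after reseeding. The opened set went further than the members, from 7.12% to 61.9%, with 55.2% leading only after reseeding. Since the rule asks for a low bound in one state and a high one in the other, part of this exchange is built in.

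A member and a lost peak could lie side by side. Within 5 kb, 152 members (10.3%) had a peak at least 2-fold lower, against 41.7% in the mirror set and 17.3% in the equal strong set. In 34 pairs, with 30 members on 14 chromosomes, the lost neighbour had been at 30 CPM or more. The pair with the largest opposed changes was on chromosome 9, where the member from 37534360 to 37534860 went from 12.6 and 15.4 CPM to 59.3 and 57.4 CPM. Centred 1556 to 2788 bp away, 3 peaks moved the other way. The farthest of them, from 37531572 to 37532072, went from 102.9 and 102.7 CPM in the mature to 21.1 and 19.7 CPM in the reseeded libraries. The next, from 37532151 to 37532651, went from 39.04 and 38.38 to 4.67 and 4.58 CPM, and the nearest, from 37532804 to 37533304, from 100.8 and 97.1 to 22.5 and 21.5 CPM. At each of these 4 peaks libraries A and B differed far less than the groups did, which choosing the largest changes made likely. A second case on chromosome 9 was the member from 3647645 to 3648145, at 9.25 and 12.0 against 37.3 and 35.9 CPM, with a peak 4715 bp away that went from 33.8 and 32.1 to 4.79 and 4.79 CPM.

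Members were found on all 38 numbered chromosomes. They were 1.09% to 4.57% of a chromosome's peaks, with a median of 2.50%. The highest share was on chromosome 17, with 120 members among 2623 peaks (4.57%, interval 3.81 to 5.45), followed by chromosome 14 with 60 of 1567 (3.83%) and chromosome 29 with 20 of 535 (3.74%). The lowest were on chromosome 24 with 12 of 1105 (1.09%, interval 0.562 to 1.89), chromosome 19 with 7 of 576 (1.22%) and chromosome 11 with 22 of 1459 (1.51%). Among peaks at 30 CPM or more after reseeding, members made up 21.3% on chromosome 17 and 17.9% on chromosome 24, a smaller gap. Chromosome 11 had few members although 34.5% of its peaks had a ratio of at least 2, against 24.9% on chromosome 17. On the first 3 Mb of the numbered chromosomes 58 of 3184 peaks (1.82%) were members.

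Members and gains in general had different shares by peak density. The peaks were put into 5 equal bins by the number of others within 500 kb either side, with medians of 17, 32, 46, 63 and 91. In order of density, peaks with a ratio of at least 2 made up 37.25%, 33.96%, 29.3%, 23.5% and 14.02%. Members made up 2.13%, 2.68%, 2.98%, 2.67% and 2.32% of the same bins, highest in the middle one. The bound of 30 CPM enters these shares, as peaks at 30 CPM or more after reseeding went from 1172 in the sparsest bin to 1883 in the densest. Of such peaks, members made up 20.99%, 23.04%, 22.24%, 17.80% and 14.23%, lowest in the densest bin. The members' median was 46 peaks within 500 kb, the same as for all peaks, against 59 for the mirror set, 54 for the equal strong set and 38 for the opened set. The nearest peak lay at a median of 3.71 kb from a member and 3.67 kb over all peaks, but at 1.66 kb in the mirror set and 2.50 kb in the equal strong set. No test was made of these differences between peaks.

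**Figure D4:**
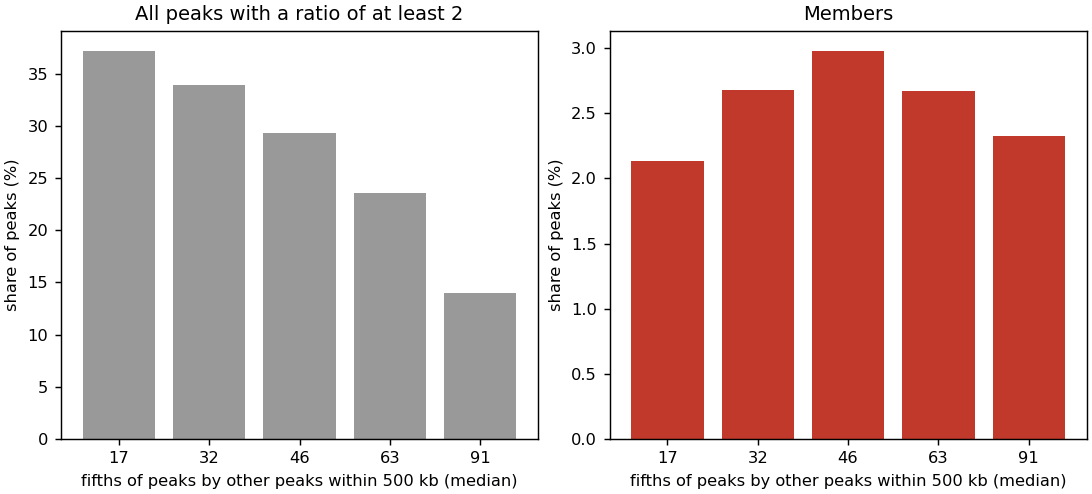
Share of peaks in each of 5 equal bins of local peak density (labelled by the median number of other peaks within 500 kb) that had a ratio of at least 2 (left) and that were members (right), on bar axes from 0 with different scales. The left share falls from 37.25% to 14.02%, while the right stays between 2.13% and 2.98%. Members also had to reach 30 CPM after reseeding, which more peaks did in the denser bins.

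A few members lay alone. No other peak was found within 50 kb of 33 members (2.24%, against 4.38% of all peaks). Their median ratio was 2.99 and ranged from 2.02 to 7.00. The most isolated was on chromosome 15 from 57722895 to 57723395, 865.9 kb from the next peak, and went from 7.99 and 9.59 CPM to 39.6 and 37.5 CPM. On chromosome 22 from 20539116 to 20539616, 459.3 kb from the next peak, the values were 11.8 and 9.27 against 35.6 and 32.3 CPM.

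Windows of 1 Mb held up to 10 members. Of 2012 windows with any peak, 1172 had no member, 479 had 1 and 33 had at least 5. The window with the most was chromosome 17 from 7000001 to 8000000, with 10 members among 56 peaks. In it the members went from means of 8.13 to 28.03 CPM in mature to 33.2 to 70.4 CPM in reseeded cells. The largest gains there were at 7178561 to 7179061, from 9.48 and 11.03 to 71.6 and 69.2 CPM, and at 7464526 to 7465026, from 7.88 and 11.5 to 64.8 and 66.1 CPM. Another 8 peaks had a ratio of at least 2, and each of these ended under 30 CPM. The window also had a divide, described after its values were seen. Of the 19 peaks before the first member, 0 had a ratio of at least 2 and 6 were at least 2-fold lower, and their summed CPM went from 475.8 and 459.6 to 271.3 and 263.8. From the first member on, where the members were placed by the choice of the divide, 8 of the 27 other peaks had a ratio of at least 2 and 2 one of 0.5 or less. The summed CPM of those 27 went from 465.4 and 486.4 to 505.8 and 498.6.

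**Figure D5:**
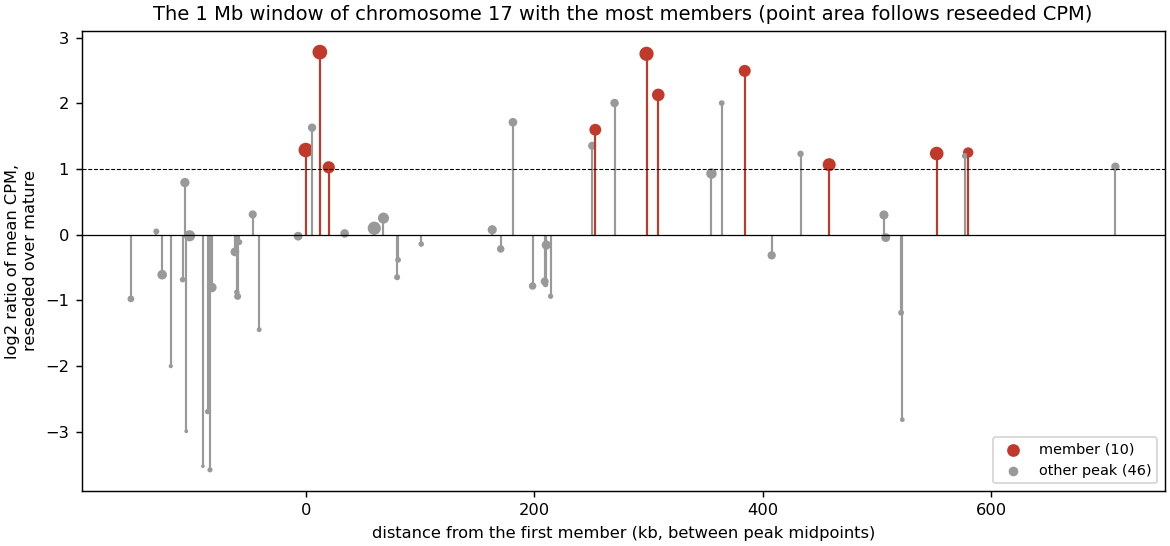
Log2 ratio of reseeded to mature mean CPM for the 56 peaks of the window of chromosome 17 from 7000001 to 8000000, by distance in kb from its first member, with members in red, other peaks in grey, point area growing with the reseeded mean and a dashed line at a ratio of 2. Losses lie mostly to the left of the first member and all 10 members within the next 580 kb.

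In the window of chromosome 17 with 10 members, the median log2 ratio of the other 46 peaks was -0.19. Chromosome 10 from 25000001 to 26000000 was close to it, with 8 members among 101 peaks, a median of -0.13 in its other 93 peaks and 16 of these at least 2-fold higher. Chromosome 37 from 15000001 to 16000000 had 7 among 50, and its other 43 had a median of 0.71, with 17 of them at least 2-fold higher. On chromosome 9 from 37000001 to 38000000, 7 members stood among 129 peaks, of which 57 were at least 2-fold lower. Without its members, that window's summed CPM went from 3674 and 3924 in the mature to 2463 and 2445 in the reseeded libraries. Members were thus found in stretches that gained, in stretches that lost and in stretches with a median ratio close to 1.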

How the data were processed

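The authors deposited one table of raw counts for 59081 peaks in 4 ATAC-seq libraries. Per the submitters' processing notes, Bowtie2, MACS2 and the build CanFam3.1 were used. The sources used here do not give versions, duplicate handling, the Tn5 offset, whether reads, fragments or insertions were counted, or how peaks entered the table. Peaks weak in both states are few (204 under 8 CPM in mature and 5 CPM in reseeded cells). Sequence accessions were read as chromosomes 1 to 38 and X.

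CPM used each library's total over all peaks. All peaks passing filterByExpr (59076) were fitted with edgeR 4.0.16 (quasi-likelihood, TMM, no block) in R 4.3.3, with Benjamini-Hochberg adjustment. SEs come from the fold and its F statistic. TMM factors were 0.984, 0.987, 1.01 and 1.02. The fit was tested on simulated data. Alternatives used DESeq2 1.42.0 and limma 3.58.1. Distances run between peak midpoints.

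Members, comparison sets and lists were chosen with earlier results of these data known. Named peaks are the 8 highest ratios, 8 highest reseeded and 6 highest mature means, those nearest each bound, the 3 leading groups, and the leading windows, chromosomes, isolated members and opposed pairs. No genome or gene annotation of this build was used, so sequences, motifs, GC content and gene lists were not analysed here.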

Additional observations from a re-analysis of the deposited data

How the results depend on the processing

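Of 65 alternatives for the counts and shares, 59 stayed within 1.5 times the count, the replicate spread or the counting interval. These 59 include 13 counts of members called higher, which the rule made all but certain. The number of members was 654 at a ratio of at least 3 and 1152 when every library had to meet its bound. Other scalings in the rule gave 1386 (TMM), 1388 (DESeq2 size factors) and 1467 (upper-quartile factors), and thinning to the shallowest total gave 1457, of which 1352 were members. With a library left out the rule picked 1414 to 1512 peaks. Loess offsets moved the members' median log2 fold from 1.46 to 1.62, against a median of -0.11 over all peaks, and the cause was not tested. The 13 alternative fits called 33.2% to 43.3% of all peaks higher and all 1475 members, which says nothing on stability as the rule chose them for their ratio. In all, 43905 to 49688 peaks were called. The replicate block by library letter called 48979 peaks and changed no call of a member or named peak. The B minus A log2 difference in one group correlated at 0.03, over peaks, with that in the other. Counting error is part of both differences, so this value cannot tell whether shared letters pair the libraries. Another member lay within 5 kb of 5.49% and within 50 kb of 24.1%. Nearest other peaks at least 1.5-fold higher made up 46.0%. With TMM, 88.7% of members met the bounds in the B libraries. Of 533 alternatives for the 41 named peaks, 531 kept direction and call; the exceptions were both non-members inside a group, at a log2 fold of -0.55 under loess offsets on chromosome 5, and 0.14 without reseeded B on chromosome 17. The rule chose the members among the named peaks for their ratio, so the count of 531 says little on their stability. Mature depth limits the ratios of members near 8 CPM most.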

Other observations

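On chromosome X, which the rule left out, 12 of 1409 peaks met all 3 bounds. Their ratios ran from 2.04 to 4.26. The highest was from 83568035 to 83568535, with 7.19 and 9.27 CPM in mature and 34.1 and 36.1 CPM in reseeded libraries A and B. The second, from 91677075 to 91677575, had 11.9 and 15.5 CPM against 50.2 and 52.1 CPM. Each had both reseeded libraries above both mature ones, as did 47.1% of all peaks on numbered chromosomes. Their ratios chose these peaks, so nothing is read from that.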
